A study of Mus musculus with 12 samples.

Results

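Transcripts of 10 genes that make, transport, break down or sense prostaglandins were followed in mouse airway organoids after laser ablation of a few cells. The genes were Ptgs1, Ptgs2, Ptges, Ptges3, Ptger2, Ptger4, Ptgr1, Hpgd, Pla2g4a and Slco2a1, chosen by name from the 55401 genes listed in the deposited expression table. All 10 were listed. Of these, 8 passed the filter on low values, 10 normalized counts or more in 6 or more of the libraries, as did 13792 genes overall. Ptger2 and Hpgd did not pass and are described by their values.

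Prostaglandins are lipid mediators made from arachidonic acid. A phospholipase frees the fatty acid from the membrane, a cyclooxygenase (COX-1 from Ptgs1, COX-2 from Ptgs2) turns it into prostaglandin H2, and terminal synthases turn that into prostaglandin E2 and its relatives, which act on G protein-coupled receptors of the same or nearby cells. A transporter then takes prostaglandins into the cell, where dehydrogenases and reductases inactivate them, and in epithelia the pathway is known for its part in inflammation and wound closure.

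The organoids were grown from airway epithelium of adult C57BL/6J mice, and every culture, controls included, carried a lentiviral Histone2A-mCherry reporter under a p63 promoter. In each ablation dish 45 organoids lost 10 cells each to a femtosecond laser and RNA was taken 4.5 h later. Control dishes were kept alike without ablation, and all dishes were moved to unsupplemented FluoroBrite DMEM for the experiment. There were 6 ablation and 6 control libraries, numbered 1, 3, 4, 5, 6 and 7, with 1 dish of each kind per number. Dishes of the same number shared passage, day of culture and date, and are called pairs here. Pairs 1, 4 and 5 were at day 14, 14 and 15 of culture, and pairs 6, 7 and 3 at day 18, 19 and 20. The library numbers fell into 2 runs, called library set 1 (pairs 1, 3 and 5) and library set 2 (pairs 4, 6 and 7). The titles of control dishes 4, 6 and 7 contain the word ablation while their treatment label reads control. They were used as controls, and the fold change of each tested member is also given for library set 1, which holds none of them. Pairs 1 and 3 were at passage P2+14, pairs 4 and 5 at P2+15, and pairs 6 and 7 at P2+16. Within a passage, date and day of culture lead back to the same starting date. Nothing in the labels says that pairs came from different animals. The tests treat the 6 pairs as separate cultures. Their p-values measure the spread between these dishes and may be too small.

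Normalized counts summed to 27600452 to 28247162 per ablation library and to 27297950 to 28504390 per control library, and the 9 libraries whose whole reads could be recovered held 23631212 to 29775699 reads. Of 12 airway epithelial markers 9 passed the filter, and their summed level was 519410 to 665420 after ablation and 515900 to 643920 in controls. Most of that sum came from the basal keratins Krt5 and Krt14. Within the list, the basal cell factor gene Trp63 was at 9844 ± 1141 after ablation and 7505 ± 917 in controls, higher in 6 of 6 pairs (log2 fold change 0.39, limma adjusted p = 0.187, paired 0.00825, with plain eBayes 0.121). Sox2, an airway lineage factor, was at 3494 ± 397 and 3940 ± 410, lower in every pair (log2 fold change -0.17, limma adjusted p = 0.642, paired 0.0488, with plain eBayes 0.167). Krt8 was higher in 6 of 6 pairs without a call in any of these fits. The part of these markers in the results below was not tested. Scgb1a1, Muc5ac and Foxj1, which define club, goblet and ciliated cells, were under the filter. Fibroblast markers summed to 19.98 to 46.0 after ablation and 19.8 to 48.3 in controls, endothelial markers to 8.89 to 26.3 and 7.05 to 20.47, and immune markers to 179 to 347 and 185 to 327. Mast cell markers summed to 2.97 to 6.57 and 1.93 to 11.1, with Fcer1a, Cpa3 and Tpsb2 at 0, and alveolar type II markers to 1032 to 1284 and 975 to 1242, with Sftpb and Sftpc at 0 and nearly all of the sum from Abca3 (1126 ± 111 and 1124 ± 100.2). In such bulk libraries fewer cells of a type and less RNA per cell cannot be told apart.

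The promoter windows of the 2 cyclooxygenase genes are shown because these were the members with the largest differences after ablation. Each runs from 250 bases before the RefSeq start to the first bases of the transcript (GRCm38.p6), 5′ to 3′ on the + strand. The Ptgs2 window lies at chr1:150099781-150100080 and the Ptgs1 window at chr2:36230176-36230475. Capitals mark a partial CRE site (CGTCA, shorter than a full CRE) that overlaps an E-box (CACGTG).

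Ptgs2: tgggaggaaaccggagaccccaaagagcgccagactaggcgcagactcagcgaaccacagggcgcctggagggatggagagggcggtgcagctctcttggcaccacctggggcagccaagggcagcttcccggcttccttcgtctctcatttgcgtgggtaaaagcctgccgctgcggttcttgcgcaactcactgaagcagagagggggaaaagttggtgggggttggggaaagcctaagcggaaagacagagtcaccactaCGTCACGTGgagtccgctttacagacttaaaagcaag

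Ptgs1: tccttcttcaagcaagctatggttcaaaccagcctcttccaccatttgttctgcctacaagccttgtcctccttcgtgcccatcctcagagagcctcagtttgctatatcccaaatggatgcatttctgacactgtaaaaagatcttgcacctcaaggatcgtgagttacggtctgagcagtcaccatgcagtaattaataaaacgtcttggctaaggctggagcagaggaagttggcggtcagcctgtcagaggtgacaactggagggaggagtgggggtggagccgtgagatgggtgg

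Counting the annotated start as 0, the partial CRE site of Ptgs2 covered bases 13 to 17 and the E-box bases 16 to 21. The Ptgs1 window held none of the 4 motifs searched on both strands, which were the 2 above, an AP-1 site (TGANTCA) and a TATA box (TATAAA). Of all 32851 promoter windows in the same table, 20.81% held the partial CRE site and 7.15% the E-box. The AP-1 site was in 7.81% and the TATA box in 13.62%. All 10 members matched the table, in 11 windows. Ptges3 held a partial CRE site, and 1 window each of Pla2g4a, Hpgd and Slco2a1 held TATAAA.

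Levels were compared between genes per kilobase of merged exon. In controls Ptges3, a cochaperone also described as the cytosolic prostaglandin E synthase, was highest at 2903 ± 394 normalized counts per kb (SD, n = 6), followed by Ptgs2 at 1870 ± 629, which stood at rank 696 of the 13792 genes that passed the filter. Ptgr1 followed at 938 ± 196, then Pla2g4a at 342 ± 38.4, Ptges at 297 ± 35.7 and Ptgs1 at 263 ± 43.7. Slco2a1 was at 52.7 ± 11.2 and Ptger4 at 26.4 ± 5.72. The inducible cyclooxygenase was thus well above the constitutive one in unablated organoids, and the receptor was the lowest member that passed the filter. Neighbours whose dishes overlapped in both groups were Ptges3 and Ptgs2, Pla2g4a and Ptges, and Ptges and Ptgs1. The other neighbours among the 8 did not overlap in either group. After ablation Ptgs2 stood at 2982 ± 850 per kb, rank 380, and Ptgs1 at 340 ± 81.4.

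**Figure D1:**
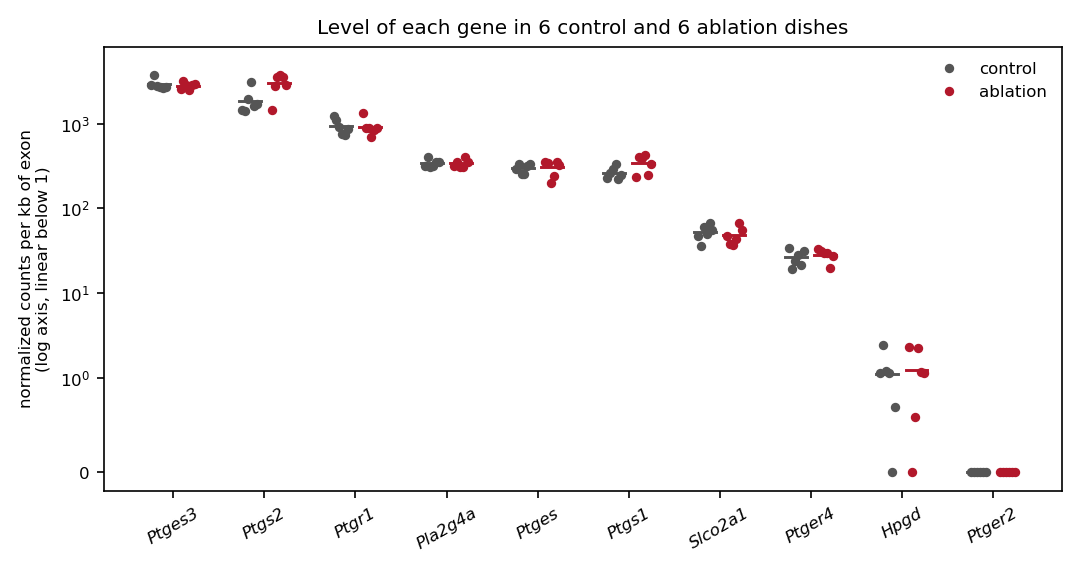
Level of the 10 genes in normalized counts per kb of exon (log axis, linear below 1), with 1 point per dish, grey for control and red for ablation, and a line at the group mean. Ptges3 and Ptgs2 lead, Hpgd lies near 1 and Ptger2 is at 0 in all 12 dishes.

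Ablation was compared with control by limma on log2(normalized count + 1), with the library set as a second term, and p-values were adjusted by Benjamini-Hochberg over all 13792 genes. No member passed an adjusted p of 0.05, and neither did any other gene (0% of those tested). The paper's own DESeq2 test, with condition and batch as factors, did report differentially expressed genes, Ptgs2, Trp63 and Sox2 among them. Its values were not used here. At an unadjusted p of 0.05, 7.85% of all genes and 2 of the 8 members passed, Ptgs1 and Ptgs2. With the pair as a term in place of the library set, 1.09% of all genes passed the adjusted threshold (150 genes, 93 higher and 57 lower) and 1 member, Ptgs1. At an unadjusted p of 0.05 the paired model passed 17.6% of all genes and the same 2 members. The paired calls depended on how limma models the variance. On simulated data the trended robust setting used here gave more false calls than the nominal rate in the paired model. Plain eBayes stayed at or near that rate. The simulated dishes were drawn independently, with no pair effect, and their spread was set from only a fraction of the variance between controls. These rates may therefore not hold for the real pairs. With plain eBayes the paired model called 0% of all genes and no member, with 2190 genes at an unadjusted p of 0.05. Of the 8 members 4 had a higher and 4 a lower fitted level after ablation, with a median log2 fold change of -0.0034, against -0.0036 over all genes tested.

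**Figure D2:**
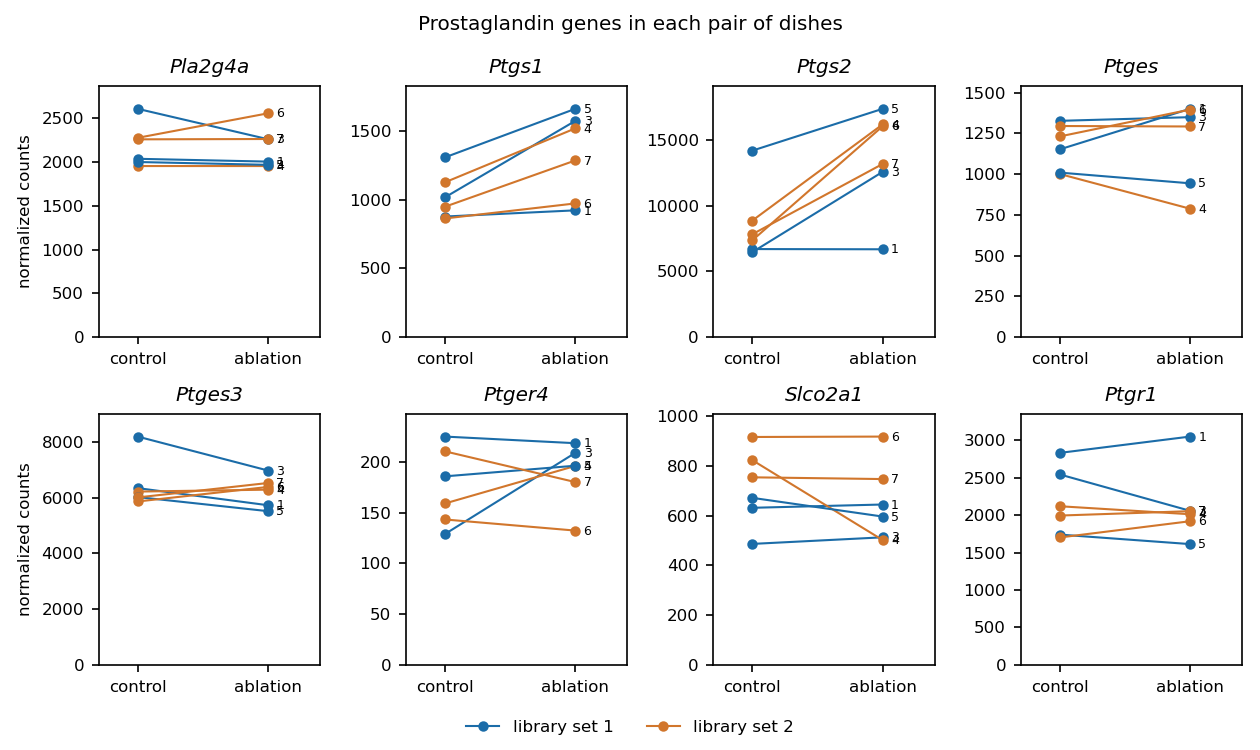
Normalized counts of the 8 tested members in the control and the ablation dish of each pair, joined by a line and numbered by pair, blue for library set 1 and orange for library set 2. Ptgs1 is higher after ablation in 6 of 6 pairs and Ptgs2 in 5 of 6, while lines of the other members run both ways.

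Ptgs2 (ENSMUSG00000032487.8, chr1:150100031-150108227, + strand) encodes COX-2, the cyclooxygenase that inflammatory and growth signals induce. Its lowest, median and highest normalized counts were 6680, 14594 and 17354 after ablation, and 6465, 7594 and 14179 in controls. The ablation dishes were mostly the higher ones, but the groups overlapped. In pair 1 the dishes were nearly equal, at 6680 after ablation and 6696 in the control, and control dish 5, at 14179, was above 3 of the 6 ablation dishes. The log2 fold change was 0.66 (SE 0.235, 95% confidence interval 0.16 to 1.17, adjusted p = 0.569 by limma), or 1.58-fold. With pairs as a term the limma adjusted p was 0.116, and 0.168 with plain eBayes. Without pair 1 the paired fit gave 0.80 (limma adjusted p = 0.0230, and 0.157 with plain eBayes). With any other single pair left out, the limma adjusted p ran from 0.141 (without pair 5) to 0.256 (without pair 3). The call thus appeared only without pair 1.

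Between the library sets the log2 fold change of Ptgs2 was 0.42 in set 1 and 0.91 in set 2. In paired fits within each set the limma adjusted p was 0.518 in set 1 and 0.000708 in set 2. With plain eBayes they were 0.536 and 0.313, so that the call in set 2 was lost, and simulated data again showed excess false calls for the trended robust fit of a single set. The difference between the sets was 0.50 (interval -0.16 to 1.16, adjusted p = 0.723 by limma, and 0.736 with plain eBayes), so the sets were not shown to differ.

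Ptgs1 (ENSMUSG00000047250.13, chr2:36230426-36252272, + strand) encodes COX-1, usually described as the constitutive cyclooxygenase. Its lowest, median and highest normalized counts were 922, 1402 and 1660 after ablation, and 863, 983 and 1308 in controls. Every ablation dish was above the control of its own pair, although the groups overlapped. Over all genes tested, 5.17% were higher in all pairs. The gap ranged from 922 against 877 in pair 1 to 1573 against 1017 in pair 3. The log2 fold change was 0.35 (SE 0.157, interval 0.0086 to 0.69, adjusted p = 0.629 by limma), or 1.27-fold.

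The paired model put the same Ptgs1 value past the threshold (SE 0.0640, interval 0.21 to 0.49, adjusted p = 0.0241 by limma), and plain eBayes did not (interval 0.17 to 0.53, adjusted p = 0.163). When single pairs were left out of that model, the limma adjusted p was 0.0146 without pair 1, 0.0232 without pair 6, 0.0527 without pair 3, 0.0611 without pair 7, 0.0819 without pair 5 and 0.116 without pair 4. The call was thus lost without any 1 of pairs 3, 4, 5 and 7. With plain eBayes these values ran from 0.162 to 0.328. The log2 fold change was 0.35 in each library set. Tuft cells are a known epithelial source of COX-1, and 3 of 8 tuft markers passed the filter. Their sum over all 8 was 248 to 484 after ablation and 447 to 588 in controls, with Trpm5 and Gnat3 near 0. These sums lay lower in the group in which Ptgs1 was higher, with ranges that overlapped. Of the 3 tested markers, Avil (137 ± 52.9 after ablation, 237 ± 87.6 in controls) and Pou2f3 (28.8 ± 10.4 and 37.7 ± 10.7) were lower. Dclk1 was not (197 ± 64.2 and 188 ± 55.7). The part of these markers in the result was not tested. No member had groups that did not overlap, against 0.457% of all genes.

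**Figure D3:**
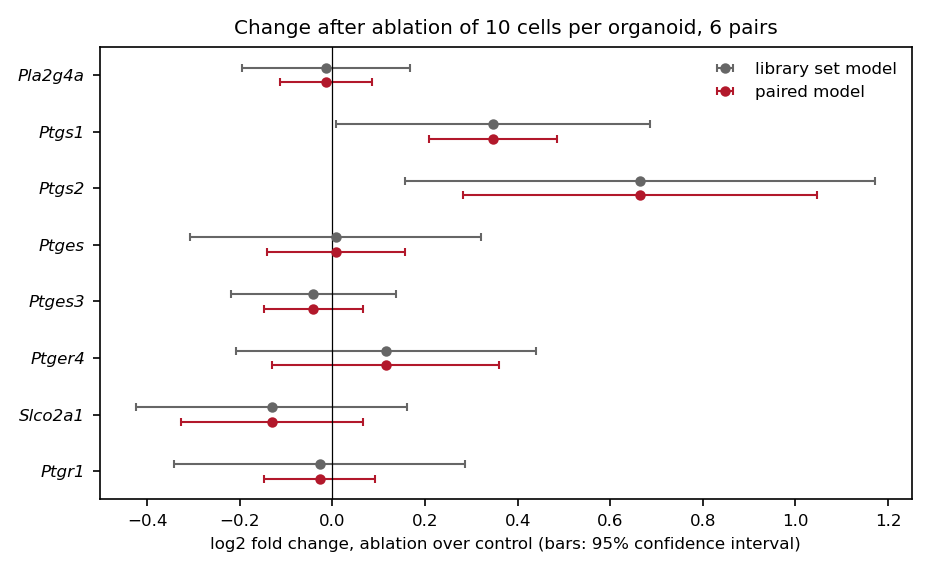
Log2 fold change of ablation over control for the 8 tested members, with 95% confidence intervals from the library set model (grey) and the paired model (red), both with the trended robust variance. Intervals of Ptgs1 and Ptgs2 lie above 0 in both models and those of the other 6 members include 0.

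The ratio of Ptgs2 to Ptgs1 per kb was 8.91 ± 2.75 after ablation and 6.99 ± 1.25 in controls (SD, n = 6). It was higher after ablation in 4 of 6 pairs, and the log2 change per pair ran from -0.08 to 0.95 with a mean of 0.32 (exact sign-flip permutation test, two-sided, p = 0.125, where 0.03125 is the smallest p that 6 pairs allow). A shift in the balance of the 2 cyclooxygenases was not shown.

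Pla2g4a (ENSMUSG00000056220.14, chr1:149829618-149961290, - strand) encodes cytosolic phospholipase A2, which frees arachidonic acid. The gene lies 138740 bases from Ptgs2, on the opposite strand. Its counts were 1953, 2131 and 2554 (lowest, median, highest) after ablation and 1953, 2146 and 2606 in controls. The groups covered the same range, with a log2 fold change of -0.01 (interval -0.19 to 0.17, adjusted p = 0.983 by limma).

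Ptges (ENSMUSG00000050737.13, chr2:30889471-30929863, - strand) encodes microsomal prostaglandin E synthase 1, often induced with COX-2. Its counts were 788, 1320 and 1400 after ablation and 1001, 1191 and 1326 in controls. Ablation dishes held both the lowest and the highest value, and 3 of 6 pairs were higher. Fitted over all pairs, the log2 fold change was 0.01 (interval -0.31 to 0.32, adjusted p = 0.996 by limma).

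Ptges3 (ENSMUSG00000071072.12, chr10:128058954-128077272, + strand) had counts of 5513, 6332 and 6970 after ablation and 5859, 6116 and 8186 in controls. The groups overlapped, with control dish 3 above all others. The log2 fold change was -0.04 (interval -0.22 to 0.14, adjusted p = 0.927 by limma). Reads of Ptges3 may be shared with its pseudogene Ptges3-ps, listed at a mean of 584 normalized counts. Between library sets the response of Ptges3 differed by 0.25 (interval 0.10 to 0.41), which did not pass the adjusted threshold (adjusted p = 0.439, and 0.597 with plain eBayes), and 0.00725% of all genes passed it.

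Among receptors, Ptger4 (ENSMUSG00000039942.15, chr15:5206661-5244187, - strand) encodes EP4, a prostaglandin E2 receptor that raises cAMP. Its counts were 132, 196 and 218 after ablation and 129, 172 and 225 in controls. The groups overlapped throughout, with a log2 fold change of 0.12 (interval -0.21 to 0.44, adjusted p = 0.873 by limma). Its exons overlap those of Ttc33 on the opposite strand, at a mean of 1242 normalized counts. The study's methods describe stranded libraries, but whether counting used strand is not given in the sources used here.

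Ptger2 (ENSMUSG00000037759.6, chr14:44988195-45003820, + strand), which encodes EP2, the other cAMP-raising receptor, was at 0 in all 12 libraries. In the libraries with recovered reads a count of 0 allows up to 0.101 to 0.127 CPM (3 reads of the library total, counting error only), whereas Ptger4 was at 4.53 to 8.04 CPM. The exons of Ptger2 also overlap genes on the opposite strand, Gm17173 at a mean of 16.4 normalized counts and Gm49364 at 0.657, so the limit holds only where reads in the shared stretch were counted for Ptger2.

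Slco2a1 (ENSMUSG00000032548.14, chr9:102988712-103096002, + strand) encodes the prostaglandin transporter. Its counts were 502, 620 and 917 after ablation and 486, 712 and 916 in controls. Most pairs differed little, but in pair 4 the ablation dish held 502 and the control 822. Ablation gave a log2 fold change of -0.13 (interval -0.42 to 0.16, adjusted p = 0.841 by limma), and -0.02 without pair 4.

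Ptgr1 (ENSMUSG00000028378.6, chr4:58965439-58987119, - strand) encodes a reductase of oxidised prostaglandins that also acts on leukotriene B4. Its counts were 1613, 2031 and 3047 after ablation and 1701, 2056 and 2830 in controls. Both dishes of pair 1 were the highest of their group. Over all 6 pairs the log2 fold change was -0.03 (interval -0.34 to 0.29, adjusted p = 0.980 by limma).

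Hpgd (ENSMUSG00000031613.9, chr8:56294585-56321043, + strand) encodes the dehydrogenase that begins prostaglandin breakdown. Its counts were 0, 1.96 and 3.90 after ablation and 0, 1.92 and 4.09 in controls. At this level no difference was detectable (exact permutation test, two-sided, p = 0.903, and exact sign-flip permutation test over pairs, p = 0.906). Per kb, controls held 1.101 ± 0.795 for Hpgd against the 938 of the reductase Ptgr1.

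Within library set 1, which holds none of the controls with an ablation title, no member was called. There the paired log2 fold changes were 0.07 for Ptges, 0.24 for Ptger4, -0.10 for Ptgr1, -0.08 for Pla2g4a, -0.02 for Slco2a1 and -0.17 for Ptges3, beside the 0.35 of Ptgs1 and 0.42 of Ptgs2 given above.

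Other genes of the pathway were read from lists. With the library set as a term, limma called 0 genes on all 7 lists. In the paired model Ptgs1 was the only call on them. Over all 13792 genes tested, 6689 had a higher and 7103 a lower fitted level after ablation. Genes named below beyond the 2 with the highest mean count of each list were picked after their values were seen.

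Of 24 phospholipase and arachidonate genes 14 were tested, 5 with a higher and 9 with a lower level (median log2 fold change -0.01). Anxa1, a phospholipase inhibitor that also acts in resolving inflammation, was at 148300 ± 11178 after ablation and 134440 ± 8850 in controls (SD, n = 6), higher in 6 of 6 pairs. Its log2 fold change was 0.14 (limma adjusted p = 0.629, paired 0.145, paired with plain eBayes 0.269). Acsl4, which activates arachidonic acid for return to membranes, was at 2083 ± 154 and 2279 ± 138, lower in every pair (log2 fold change -0.13, limma adjusted p = 0.543, paired 0.101, with plain eBayes 0.201).

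Of 13 cyclooxygenase and synthase genes 10 were tested, 5 higher and 5 lower (median -0.0029). Ptgs2 and Ptges3 had the highest counts. Hpgds, the haematopoietic prostaglandin D synthase, which tuft cells also express, was at 148 ± 42.2 after ablation and 99.4 ± 28.4 in controls, higher in 5 of 6 pairs (log2 fold change 0.57, limma adjusted p = 0.604, paired 0.0919, with plain eBayes 0.222). Ptgis, the prostacyclin synthase, was at 0 in all libraries.

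Of 9 prostanoid receptors 2 were tested, Ptger4 and Ptger1. Ptger1, the EP1 receptor gene, was at 41.4 ± 11.7 after ablation and 30.5 ± 8.28 in controls (log2 fold change 0.43, limma adjusted p = 0.648, paired 0.289, with plain eBayes 0.357). The other 7 had group means below 1.

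Of 7 transport and breakdown genes 6 were tested, 2 higher and 4 lower (median -0.05). Ptgr1 had the highest counts, and next came Zadh2, a reductase of the same enzyme family as Ptgr1, at 1613 ± 140 after ablation and 1565 ± 60.02 in controls. Of 16 lipoxygenase and leukotriene genes 9 were tested, 2 higher and 7 lower (median -0.10). Lta4h, which makes leukotriene B4, was at 3636 ± 338 and 3902 ± 499, and the leukotriene B4 receptor gene Ltb4r2 at 862 ± 146 and 887 ± 141.

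All 10 cAMP-responsive genes were tested, 8 higher and 2 lower (median 0.13), with Nr4a2 counted as higher at 0.00041. None of them was called in the library set or the paired model. Fosl2, an AP-1 subunit, was at 5482 ± 517 after ablation and 4850 ± 915 in controls, and the kinase gene Sik1 at 2296 ± 274 and 2199 ± 245. Per1 was at 814 ± 114 and 673 ± 61.8 (log2 fold change 0.27, limma adjusted p = 0.530, paired 0.0755, with plain eBayes 0.213). Areg, the gene of the growth factor amphiregulin, had the largest difference of the list, at 1956 ± 701 after ablation and 1374 ± 736 in controls (log2 fold change 0.51, limma adjusted p = 0.754, paired 0.389, with plain eBayes 0.354). Its log2 fold change was 0.02 in library set 1 and 1.00 in set 2, where the paired limma adjusted p was 0.000708, and 0.313 with plain eBayes. The difference of 0.98 between the sets did not pass the threshold (interval 0.12 to 1.84, limma adjusted p = 0.609). All 9 genes of AU-rich element binding proteins, which control the stability of messages such as that of Ptgs2, were tested, 5 higher and 4 lower (median 0.0046). Zfp36l1 was at 13504 ± 665 and 12189 ± 859, higher in 6 of 6 pairs (log2 fold change 0.15, limma adjusted p = 0.559, paired 0.123, with plain eBayes 0.262), and Hnrnpd at 4736 ± 395 and 4658 ± 635.

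**Figure D4:**
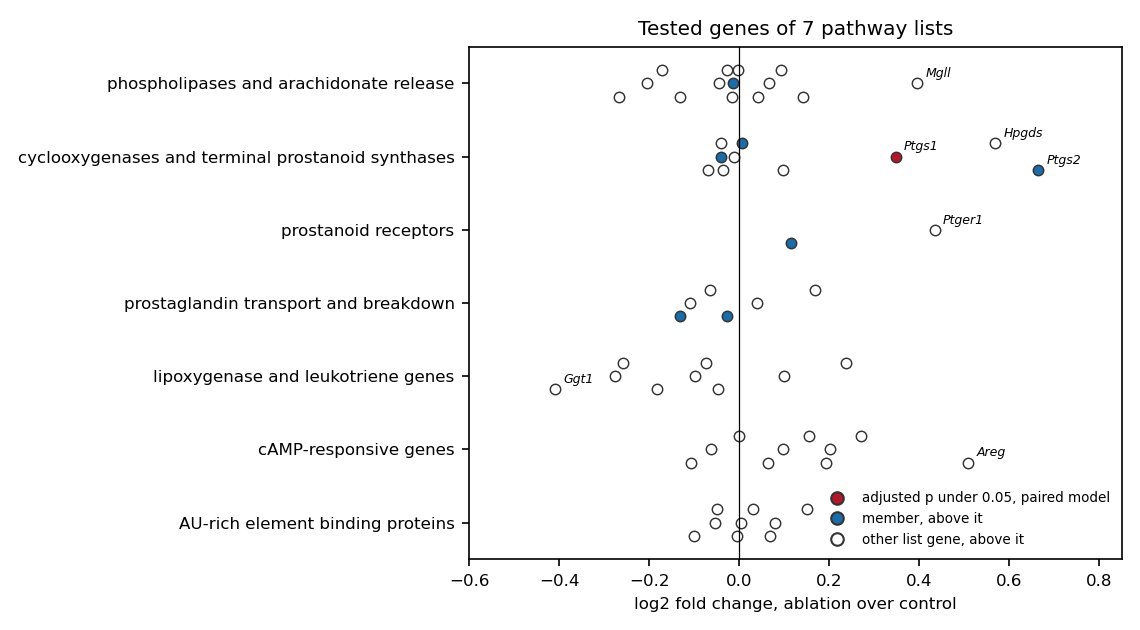
Log2 fold change of ablation over control for each tested gene of 7 pathway lists, with 1 point per gene, red for an adjusted p under 0.05 in the trended robust paired model, blue for the other members, white for the rest. Ptgs1 is the red point, Ptgs2 has the highest value at 0.66, and genes beyond 0.3 in either direction are named.

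Culture day was compared on the mean of both dishes of a pair, late (days 18 to 20) against early (days 14 and 15), by limma with the library set as a term. No member passed the adjusted threshold, and 0.00725% of all genes did. At an unadjusted p of 0.05, 6.49% of all genes and 2 of 8 members passed, Pla2g4a and Ptges. The pair means of Pla2g4a were 1953, 1983 and 2019 normalized counts early and 2259, 2410 and 2426 late, with no overlap. Over all genes tested, 9.76% had early and late pair means that did not overlap, against 2 of 8 members. The log2 difference of Pla2g4a was 0.27 (interval 0.12 to 0.42, limma adjusted p = 0.758). The pair means of Ptges were 888, 976 and 1270 early and 1293, 1310 and 1338 late, again without overlap. Its single dishes did overlap, as early ablation dish 1, at 1400, was above every late dish. The log2 difference of Ptges was 0.41 (interval 0.12 to 0.70, limma adjusted p = 0.762). With plain eBayes the adjusted p-values were 0.692 and 0.731. Pair means of the other tested members overlapped between early and late. Day of culture, passage and date cannot be fully told apart.

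**Figure D5:**
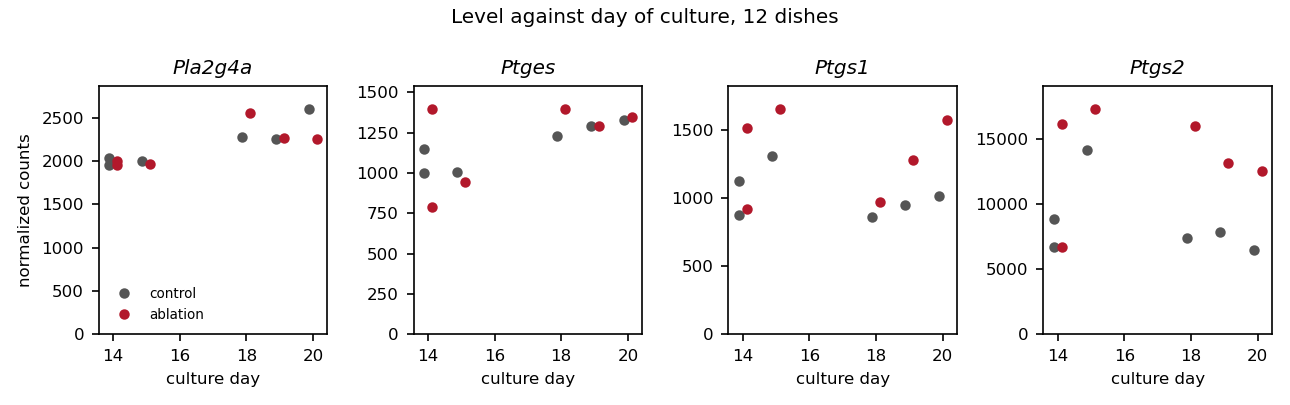
Normalized counts of Pla2g4a, Ptges, Ptgs1 and Ptgs2 against day of culture, with 1 point per dish, grey for control and red for ablation, set slightly apart on the day axis. Late pair means of Pla2g4a and Ptges lie above the early ones, and those of Ptgs1 and Ptgs2 overlap.

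Across the 12 libraries, whose pairs share a culture and whose groups differ by ablation, the genes most like Ptgs2 by Pearson's r of log2 values were Zfp263 (0.952), Artn (0.945), Dusp8 (0.944), Rbm18 (0.940) and Tgif1 (0.939). Artn encodes the neurotrophic ligand artemin and Dusp8 a phosphatase of MAP kinases. Among members the closest pair was Ptgs1 and Ptgs2 (r = 0.779), followed by Ptges and Pla2g4a (r = 0.703), and Ptgs2 and Ptgr1 were opposed (r = -0.665). These are descriptions over 12 libraries and carry no test.

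A pair of noncoding genes lies beside Ptgs2 and was picked for that position. Ptgs2os, 67 bases from Ptgs2 on the opposite strand, had counts of 34.1, 38.3 and 51.3 after ablation and 25.6, 40.2 and 50.2 in controls. Ptgs2os2, 50815 bases away, had counts of 428, 642 and 686 after ablation and 441, 557 and 671 in controls. Both overlapped between groups.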

How the data were processed

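RNA-seq of 12 organoid dishes was read from the authors' table. Per the study's methods, the authors ran nf-core/rnaseq on GENCODE GRCm38.p6 and normalized counts with DESeq2 size factors in Galaxy, with condition and batch as factors. The deposited normalized counts are a signal per gene, not raw reads, and the deposited length (another column, in bases) is that of merged exons. Columns with the authors' own fold changes, standard errors and p-values were not used.

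Genes reaching 10 normalized counts in 6 or more libraries were tested by limma 3.58.1 (R 4.3.3; eBayes, trended and robust) on log2(value + 1), a scale that understates changes of low genes, with library set as a term and Benjamini-Hochberg adjustment at 0.05. Same-numbered dishes share passage, day and date in the titles. Their deviations from group means correlated across genes at 0.618, 0.493, 0.205, 0.317, 0.381 and 0.332 in pairs 1, 3, 4, 5, 6 and 7 (ablation dish 4 reached 0.286 with a control of another number), so paired values are given where a call changes. Tests on simulated data stayed at or near the nominal rate for the library set model and for plain eBayes. Simulated dishes had no pair effect, unlike the real ones, and a spread set from only a fraction of the variance between controls. The trended robust fits that were paired, within 1 set, between sets or by culture day gave excess false calls, so plain eBayes values stand beside their calls and near calls. Whole reads recovered in 9 libraries (tolerance 0.1 read) were tested by edgeR 4.0.16 and DESeq2 1.42.0. For fold changes, n is 6 dishes a group.

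Named genes were all members, the 2 highest genes of each pathway list, any pathway gene past the threshold, and the 5 closest to Ptgs2 by correlation. Others were picked after their values were seen. Members and lists were chosen with earlier results of these data known. Promoters are RefSeq's.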

Additional observations from a re-analysis of the deposited data

Results flagged for a closer look

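Single dishes stood apart from the others of their group in 3 of 18 groups checked by Dixon's criterion, which chance meets in about 1 in 20 groups. Ptgs2 was at 14179 normalized counts in control dish 5, the other controls lying between 6465 and 8864. Ptges3 was at 8186 in control dish 3, against 5859 to 6339 in the others. Ptgr1 was at 3047 in ablation dish 1, against 1613 to 2057 in the others. The response of Ptges3 differed in sign between library sets, with a log2 fold change of -0.17 in set 1 (lower in every pair) and 0.09 in set 2 (higher in every pair). The difference of 0.25 did not pass the adjusted threshold (limma adjusted p = 0.439, and 0.597 with plain eBayes). Causes were not tested.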

How the results depend on the processing

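The fitted log2 fold changes of Ptgs1 and Ptgs2 stayed positive under all 34 alternatives run, from 0.29 to 0.40 and from 0.42 to 0.91. Members called numbered 0 in the limma fit with library set and under 30 of 34 alternatives, edgeR and DESeq2 on 9 libraries included. It was 1 with the replicate block (Ptgs1), 1 in library set 2 with the block (Ptgs2), and 0 to 2 when the block fit left out a pair (Ptgs1 and Ptgs2 without pair 1, Ptgs1 without pair 6). The block changed no other call, and with plain eBayes none of these block calls was made. Over all genes the block gave 150 calls, against 0 without it and 0 with plain eBayes. On recovered reads edgeR called 0 of 13634 genes and DESeq2 called 11, with 3965 adjusted p-values left undefined. Both ran without ablation dishes 3 and 4 and control dish 4, whose reads were not recovered. Their calls are therefore not those of the same tools on all 12 libraries.

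Directions of members near 0 turned. In library set 2, under either variance model, Ptges was at -0.056, Ptges3 at 0.086, Ptger4 at -0.012, Ptgr1 at 0.047 and Pla2g4a at 0.057. In the 9 libraries with recovered reads, edgeR put Ptgr1 at 0.037 and Slco2a1 at 0.031, and DESeq2 at 0.035 and 0.030. These fits changed both the tool and the set of libraries. Leaving out a pair gave, with or without the block, -0.048 to 0.077 for Ptges (-0.028 without pair 6), -7.8e-05 to 0.18 for Ptger4, -0.068 to 0.028 for Ptgr1 and -0.050 to 0.025 for Pla2g4a. The late minus early difference of Slco2a1 was -0.20 in control dishes and -0.0092 per day with day as a number. With a pair left out it ran from -0.35 to 0.37 for Slco2a1, -0.22 to 0.13 for Ptgr1, -0.015 to 0.36 for Ptges3, -0.38 to 0.14 for Ptgs1 and -0.45 to 0.076 for Ptgs2. The late against early comparison called 0 members under every alternative, as did the comparison of library sets and the tests of Ptger2 and Hpgd. The plain eBayes fits of a single set, of the set difference and with a pair left out, and the alternatives for Ptger2 and Hpgd, were chosen after seeing the data. Low counts kept Ptger2 and Hpgd out of the limma fit, and Ptger4 had no adjusted p with DESeq2.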
